A study of Sus scrofa with 30 samples.

Results

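The time course examined here ran from the start of maturation to its last day under fetuin-A. It comprised 8 of the 24 RNAseq libraries of the series, namely the 4 libraries of Fet-A at maturation d5 (Fet-A/d5, culture day 10) and the 4 of HSA at maturation d1 (HSA/d1, culture day 6). The members were taken from the treatment and culture day in the sample labels, without use of any measured value. The cells were neonatal islet-like cell clusters (NICCs), clusters of endocrine, ductal, acinar and mesenchymal cells prepared from the pancreas of piglets aged 2 to 12 days. All clusters were first kept in maintenance medium and were placed in serum-free maturation medium at culture day 5 to 6. In the HSA/d1 group the maturation medium held human serum albumin (HSA, 0.6 mg/ml). In the Fet-A/d5 group it held human fetuin-A (0.6 mg/ml) instead, from the change of medium on. HSA/d1 thus stands for the start of the course, as the Fet-A/d5 clusters were not themselves matured in albumin first. HSA at maturation d5 (HSA/d5, culture day 10, 4 libraries) gave the same days of culture under albumin, and is used to test the difference between both end points. The libraries came from 4 islet preparations, and the labels name no genotype or breed. Of the animals whose clusters were cultured with fetuin-A for RNAseq, 2 were 4 days old and 2 were 12 days old, so age varied within the Fet-A/d5 group. The labels do not tie a library to a preparation or an age, and age was not entered in any test. Whole clusters were lysed, so fewer cells of a type and less RNA per cell cannot be told apart. The question addressed was which transcripts still changed over the days of maturation when fetuin-A took the place of albumin.

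Fetuin-A is a glycoprotein that the liver secretes into plasma, where it is abundant before birth and declines afterwards. It binds calcium, fatty acids and ligands of the TGF-beta family, whose receptors phosphorylate SMAD proteins that enter the nucleus and regulate transcription. Beta cells of the newborn still divide and release insulin poorly in response to glucose. During maturation they gain the machinery of glucose sensing, prohormone processing and granule exocytosis, and they leave the cell cycle.

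The deposited table held raw read counts, with totals from 20772839 to 22967442 in HSA/d1 and from 19758438 to 22825355 in Fet-A/d5. Levels are given as CPM (reads of a gene per 1000000 counted reads) after TMM normalisation, always for replicates 1 to 4 in that order. Fold changes are on the log2 scale, Fet-A/d5 minus HSA/d1 unless stated otherwise, ± SE. The SE was derived from the F statistic of the test, as the absolute log2 fold change over the square root of F. It is approximate where counts are near 0. Adjusted p values are from the quasi-likelihood test of edgeR on all 24 libraries, with Benjamini-Hochberg adjustment over the 14842 genes tested. Genes were called up- or downregulated at an adjusted p below 0.05 and an absolute log2 fold change above 1. Replicates with the same number are called a block, as the library numbers run through the 6 conditions in 4 blocks. Libraries of the same block deviated together, but the main fit does not pair them. Differences between blocks therefore enter its SE and adjusted p values. A gene that it does not call is not shown to be unchanged, and calls that changed with the block as a covariate are given for Fet-A/d5 vs HSA/d1. A few libraries stood apart. Fet-A/d5 replicate 3 was the highest of its group in most endocrine genes. HSA/d5 replicate 3 had a summed level of mesenchymal matrix genes of 5701 CPM, against 15439 to 18673 CPM in the other 3 HSA/d5 libraries, and high levels of several inflammatory genes. Each of both libraries was also left out, and counts and medians of the lists are given beside the main ones where they moved most. The labelled tissue was checked against its markers. INS, GCG and SST were among the detected hormones in every library, while the symbols of PDX1, IAPP, UCN3, MKI67, KRT19, PRSS1 and IL1B were not matched in the table, and these genes were not analysed here.

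Over the fetuin-A course, genes of inflammation rose, genes of mitosis, of mesenchymal cells and of acinar cells fell, and most endocrine genes did not pass the test in either direction. Under HSA over the same days, the lists of glucose sensing and of islet hormones and their processing had the highest shares of upregulated members. From HSA/d1 to Fet-A/d5, 704 genes were upregulated and 743 downregulated, which are 4.74% and 5.01% of the genes tested. The median log2 fold change over all genes tested was -0.00482. For 17.8% of the genes tested every Fet-A/d5 library exceeded every HSA/d1 library, and for 17.9% every one was below. In HSA/d5 vs HSA/d1, 6.70% of the genes tested were upregulated and 2.22% downregulated. The direct comparison of both end points, Fet-A/d5 vs HSA/d5, called 1.84% up and 6.29% down. The comparisons share libraries and are not independent. The genes are described below by 31 lists of known roles, each with its count of calls and its median. The counts of a list are to be read against the shares of all genes tested given above. Counts near these shares are not read as results about the members of a list. Some members of the lists are genes that the study itself picked from these samples, so their counts are not independent evidence of a direction.

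**Figure D1:**
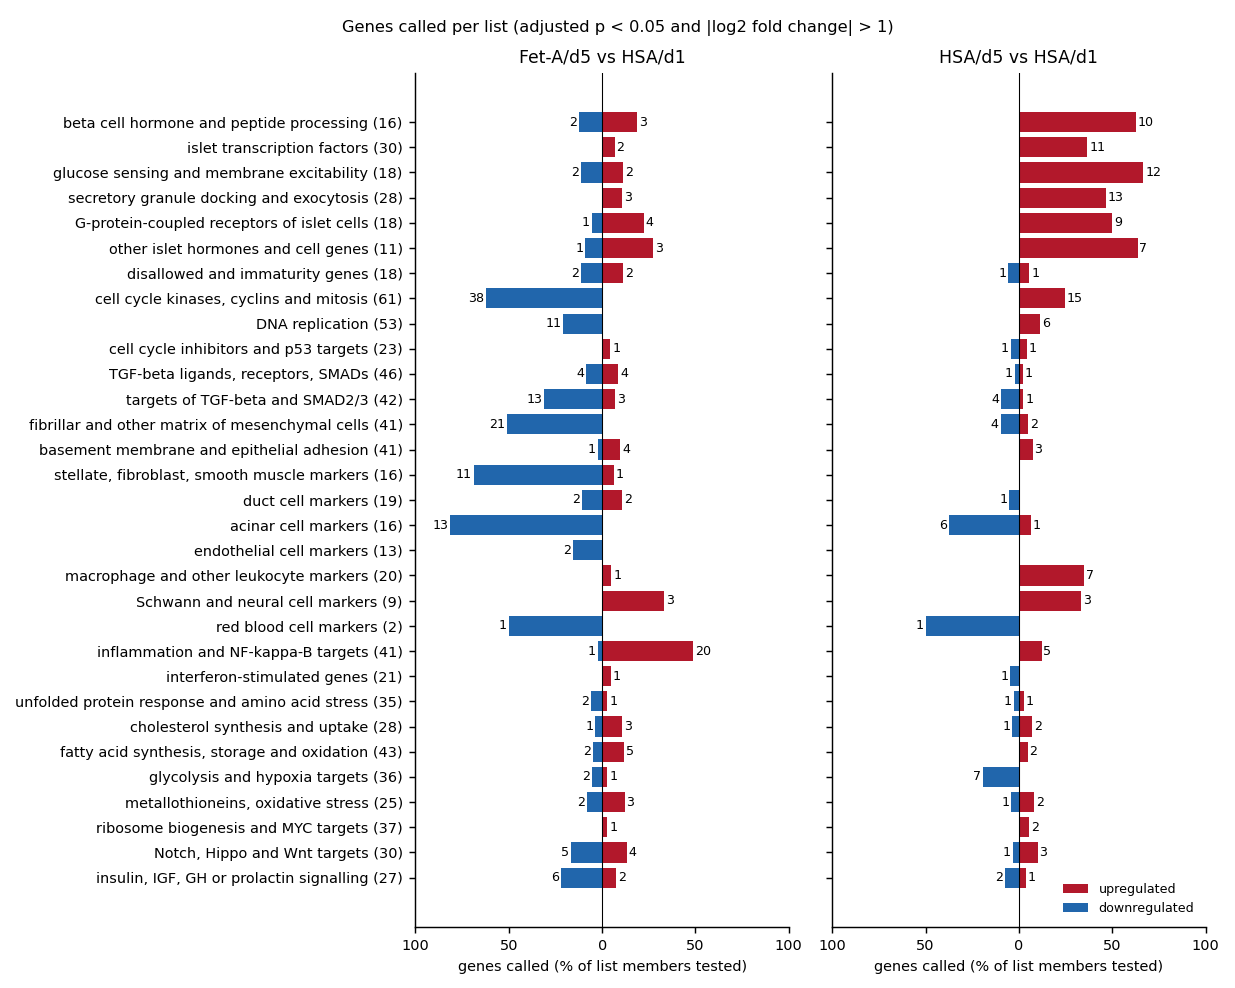
Share of tested members of each list that were called up- (right) or downregulated (left), for Fet-A/d5 vs HSA/d1 and for HSA/d5 vs HSA/d1. The x axes give percent of members tested, numbers beside the bars are genes and numbers in parentheses are members tested. Under fetuin-A the longest bars are those of acinar markers (13 of 16 down), stellate markers (11 of 16 down), mitosis (38 of 61 down) and mesenchymal matrix (21 of 41 down), and the longest rise is that of inflammation (20 of 41 up), whereas under HSA the longest are the rises of glucose sensing (12 of 18), other islet hormones (7 of 11) and beta cell hormones and processing (10 of 16).

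Of the islet hormones, none of GCG, INS, SST and PPY passed the test in either direction under fetuin-A, while GCG, SST and PPY rose under HSA. GCG, which encodes glucagon, was at 3441, 2947, 3787 and 4550.1 CPM in HSA/d1 and at 1363, 974, 8307 and 3977 CPM in Fet-A/d5. The Fet-A/d5 libraries lay on both sides of the d1 libraries, with 2 below, 1 within and 1 above their range, and the log2 fold change was -0.01 ± 0.43 (adjusted p = 0.988). Under HSA the same gene reached 14725 to 24320.0 CPM, a log2 fold change of 2.40 ± 0.45 (adjusted p = 0.000424), and the difference between both end points was -2.41 ± 0.45 (adjusted p = 0.000329). INS was at 349, 387, 930.1 and 1376 CPM in HSA/d1 and at 263, 135, 1752 and 883 CPM in Fet-A/d5. Its log2 fold change was -0.0042 ± 0.80 (adjusted p = 0.997), and levels within each group spread several-fold. In this fit without the block, neither the change under HSA (1.75 ± 0.82, adjusted p = 0.0981) nor the difference of end points (-1.75 ± 0.82, adjusted p = 0.102) passed the test. A fit of INS that pairs the libraries is not given for these comparisons, so the lack of a call does not show that INS was unchanged. SST, encoding somatostatin of delta cells, stood at 540.2 to 727 CPM in HSA/d1 and 538 to 1425 CPM in Fet-A/d5, with a log2 fold change of 0.48 ± 0.22 (adjusted p = 0.08). Under HSA it rose (2.10 ± 0.23, adjusted p = 2.69e-06). PPY, encoding pancreatic polypeptide and named after its values were seen, gave 0.85 ± 0.46 (adjusted p = 0.142) under fetuin-A and 2.33 ± 0.48 (adjusted p = 0.000927) under HSA. It was called up under fetuin-A without Fet-A/d5 replicate 2 (1.15).

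Among the 16 tested genes of beta cell hormones and peptide processing, 3 were upregulated and 2 downregulated under fetuin-A, against 4.74% and 5.01% of all genes tested, with a median log2 fold change of 0.10. Without Fet-A/d5 replicate 3 the counts were 0 up and 3 down and the sign of the median turned (-0.29), and with the block as a covariate the median was -0.05. Under HSA, 10 were upregulated, against 6.70% of all genes, and none downregulated, with a median of 1.66, and 1 was called down with the block. In Fet-A/d5 vs HSA/d5, 8 were lower, against 6.29% of all genes. The members that rose were CHGA, SCG5 and CPE. CHGA, encoding the granule protein chromogranin A, went from 444, 494, 902 and 915 CPM to 970.4, 714, 4636 and 1851 CPM. Replicate 3 was the highest Fet-A/d5 library, and the groups overlapped. The log2 fold change of 1.57 ± 0.45 (adjusted p = 0.00801) lost its call without Fet-A/d5 replicate 3 (0.78, adjusted p = 0.101). SCG5, a chaperone of the convertase PCSK2, rose by 1.43 ± 0.35 (adjusted p = 0.00263), and CPE, the carboxypeptidase that trims prohormones, by 1.14 ± 0.42 (adjusted p = 0.0317, chosen after its values were seen). Without Fet-A/d5 replicate 3 they gave 0.93 (adjusted p = 0.0212) and 0.48 (adjusted p = 0.305), so that none of the 3 rises was called without this library. CPE also lost its call without HSA/d1 replicate 1 (1.03), HSA/d1 replicate 2 (1.00), HSA/d1 replicate 3 (1.17) or Fet-A/d5 replicate 3 (0.48), and with the block as a covariate (0.97, adjusted p = 0.00104). CHGB and PCSK2, 2 further granule genes named after their values were seen, had log2 fold changes of -0.11 ± 0.37 and 0.36 ± 0.45 under fetuin-A and of 2.13 ± 0.39 and 2.37 ± 0.47 under HSA.

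**Figure D2:**
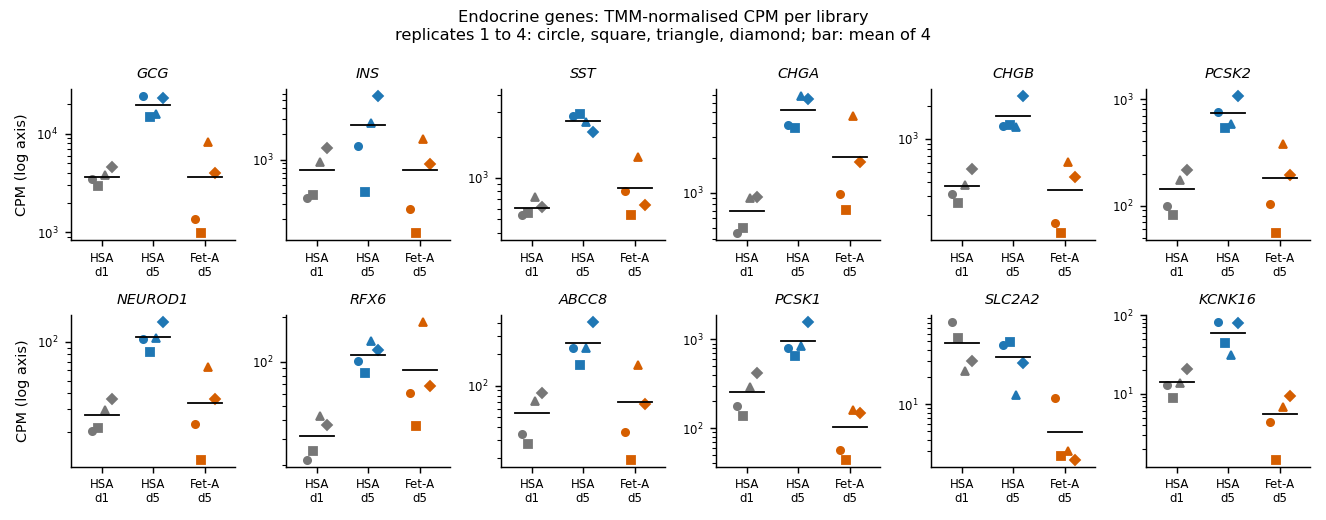
Levels of 12 endocrine genes in the 4 libraries of HSA/d1 (grey), HSA/d5 (blue) and Fet-A/d5 (orange), as TMM-normalised CPM on log axes, with a symbol for each replicate and a bar at the mean of 4. Fet-A/d5 replicate 3 (triangle) is the highest Fet-A/d5 library in 10 of the 12 panels, all but KCNK16 and SLC2A2, and the Fet-A/d5 libraries of SLC2A2 all lie below those of HSA/d1.

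Within blocks, the course of these 16 genes differed between replicates. The median log2 ratio of Fet-A/d5 to HSA/d1 of the same block was -0.0048, -0.47, 0.81 and -0.25 in blocks 1 to 4. For HSA/d5 it was 2.12, 1.75, 1.48 and 1.72. All 4 blocks thus had higher levels at d5 under HSA, whereas under fetuin-A only block 3 did so. Of the transcription factors that specify islet cells, 2 of 30 were upregulated under fetuin-A and none downregulated (median 0.46), against 11 upregulated under HSA (median 0.89). Over all genes tested, 4.74% were upregulated and 5.01% downregulated under fetuin-A, and 6.70% were upregulated under HSA. The 2 factors upregulated under fetuin-A were RFX6 and MYT1, which act in endocrine differentiation. RFX6 went from 21.7, 25.0, 42.7 and 37.0 CPM to 61.4, 36.9, 185 and 68.5 CPM, a log2 fold change of 1.48 ± 0.38 (adjusted p = 0.00381), and MYT1 gave 1.23 ± 0.35 (adjusted p = 0.00781). Without Fet-A/d5 replicate 3 the median of the list was 0.10 and both calls were lost, at 0.81 (adjusted p = 0.0393) and 0.84 (adjusted p = 0.0539). Leaving out Fet-A/d5 replicate 2 instead gave 6 upregulated factors, and leaving out Fet-A/d5 replicate 1 gave 4. NEUROD1 was at 20.3, 21.2, 29.3 and 36.2 CPM in HSA/d1 and 22.8, 12.1, 63.2 and 35.8 CPM in Fet-A/d5, with a log2 fold change of 0.32 ± 0.35 (adjusted p = 0.488), and it had risen under HSA by 2.04 ± 0.36 (adjusted p = 0.000258). MAFA, a beta cell factor with low counts here, gave -1.23 ± 0.84 (adjusted p = 0.25), and it was called down with the block as a covariate (-1.15, adjusted p = 0.00481), which made it the single factor called down in that fit.

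**Figure D3:**
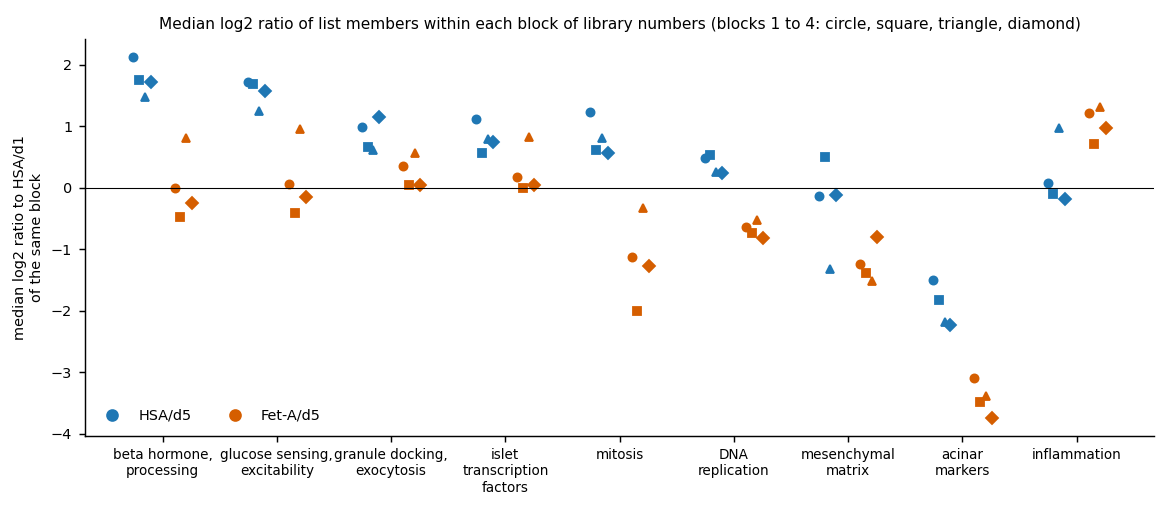
Median log2 ratio of the members of 9 lists to the HSA/d1 library of the same block, for HSA/d5 (blue) and Fet-A/d5 (orange). The y axis is a log2 ratio of CPM with a prior count of 2, and each symbol is a block. In the endocrine lists all HSA/d5 symbols lie above 0, while those of Fet-A/d5 lie around 0 with block 3 (triangle) uppermost, and the HSA/d5 triangle stands apart in mesenchymal matrix and inflammation.

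Genes of glucose sensing and membrane excitability were called in both directions under fetuin-A, and the glucose transporter GLUT2 fell far below its starting level. In this list 2 of 18 members were upregulated and 2 downregulated under fetuin-A (median 0.36), against 4.74% and 5.01% of all genes tested. With Fet-A/d5 replicate 3 left out, 1 was upregulated and 3 downregulated, and the median fell below 0 (-0.20). Under HSA 12 were upregulated (median 1.61), against 6.70% of all genes, and 11 were lower in Fet-A/d5 than in HSA/d5, against 6.29%. SLC2A2, encoding the glucose transporter GLUT2, was at 81.2, 53.9, 23.3 and 30.0 CPM in HSA/d1 and at 11.7, 2.68, 3.02 and 2.43 CPM in Fet-A/d5. All Fet-A/d5 libraries lay below all HSA/d1 libraries, with a log2 fold change of -3.23 ± 0.51 (adjusted p = 3.73e-05). Under HSA it was at 45.0, 48.3, 12.7 and 28.6 CPM and gave -0.48 ± 0.45 (adjusted p = 0.417), and the difference of end points was -2.75 ± 0.50 (adjusted p = 0.000276). KCNK16, a potassium channel of beta and alpha cells, fell by 1.37 on the log2 scale under fetuin-A (adjusted p = 0.0135) and rose by 2.07 under HSA (adjusted p = 0.000643). The fall lost its call without HSA/d1 replicate 4 (-1.12). The difference of end points was -3.44 ± 0.44 (adjusted p = 5.95e-06). SCN9A, a voltage-gated sodium channel, rose under fetuin-A by 1.14 ± 0.21 (adjusted p = 0.000196), a call that was lost without Fet-A/d5 replicate 3 (0.90). TRPM5, a cation channel opened by calcium, went from 0.281 to 0.719 CPM to 1.18 to 3.88 CPM with no overlap (2.26 ± 0.35, adjusted p = 3.53e-05). It rose under HSA as well (1.27, adjusted p = 0.00948). ABCC8, encoding the sulfonylurea receptor of the ATP-sensitive potassium channel and named after its values were seen, gave 0.36 ± 0.53 (adjusted p = 0.618) under fetuin-A and 2.25 ± 0.55 (adjusted p = 0.00358) under HSA. G6PC2, a glucose-6-phosphatase of beta cells chosen in the same way, gave -2.42 ± 1.09 (adjusted p = 0.0788), and with the block as a covariate it was called down (-2.50, adjusted p = 0.000764), as it was without Fet-A/d5 replicate 4 (-5.59).

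The peptide-processing genes that fell were PCSK1 and ERO1B. PCSK1, the convertase that starts the cleavage of proinsulin, was at 179, 138, 289 and 419.8 CPM in HSA/d1 and 56.0, 44.0, 159.5 and 148 CPM in Fet-A/d5. The groups overlapped, as replicates 3 and 4 of Fet-A/d5 lay within the d1 range, but the ratio was below 1 in all 4 blocks. The log2 fold change was -1.33 ± 0.46 (adjusted p = 0.0227), against 1.92 ± 0.46 (adjusted p = 0.00317) under HSA and -3.25 ± 0.49 (adjusted p = 3.72e-05) for the difference of end points. The fall was not called without Fet-A/d5 replicate 1 (-1.13), Fet-A/d5 replicate 2 (-1.08) or HSA/d1 replicate 4 (-0.98). ERO1B, an oxidase of the endoplasmic reticulum that serves insulin folding, fell from 47.7 to 81.6 CPM to 18.2 to 25.9 CPM with no overlap (-1.47 ± 0.26, adjusted p = 0.000114), while its log2 fold change under HSA was -0.01 ± 0.25 (adjusted p = 0.979). DLK1, a gene of fetal and immature endocrine cells that was chosen after its values were seen, was at 0.507, 0.363, 61.1 and 28.7 CPM in HSA/d1 and at 0.0896, 0.235, 6.75 and 0.517 CPM in Fet-A/d5. Its d1 level came almost wholly from replicates 3 and 4, and its log2 fold change of -3.60 ± 1.68 (adjusted p = 0.0891) was not called. It was called with the block as a covariate (-3.54, adjusted p = 2.82e-05) and without Fet-A/d5 replicate 3 (-6.35, adjusted p = 0.0375).

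Secretory granule docking and exocytosis had 3 of 28 members upregulated and none downregulated under fetuin-A (median 0.31), against 13 upregulated under HSA (median 0.90). Over all genes tested, 4.74% were upregulated and 5.01% downregulated under fetuin-A, and 6.70% were upregulated under HSA. SYT11, a synaptotagmin that does not sense calcium, rose from 18.3 to 31.9 CPM to 42.9 to 77.1 CPM (1.25 ± 0.28, adjusted p = 0.00112) and under HSA by 1.20 ± 0.28, with a difference of end points of 0.05 ± 0.27. RAB3C, a small GTPase of secretory vesicles, gave 1.10 ± 0.31 (adjusted p = 0.00641) and lost its call without HSA/d1 replicate 1 (0.96), HSA/d1 replicate 2 (0.99) or Fet-A/d5 replicate 3 (0.53). SV2A, a vesicle glycoprotein, gave 1.13 ± 0.30 (adjusted p = 0.00491) at levels below 2 CPM and lost its call without HSA/d1 replicate 1 (0.96). In the list of G-protein-coupled receptors of islet cells, 4 of 18 members rose and 1 fell (median 0.20), and 9 rose under HSA (median 1.20). Without Fet-A/d5 replicate 3, 3 rose and 2 fell under fetuin-A, and the median turned to -0.17. The receptor that fell was SSTR1, a somatostatin receptor, from 22.3, 13.3, 16.3 and 14.1 CPM to 1.97, 1.60, 3.73 and 1.03 CPM with no overlap. The fall of -2.98 ± 0.33 (adjusted p = 6.88e-07) exceeded the change under HSA, with a difference of end points of -2.12 ± 0.33 (adjusted p = 4.61e-05). SSTR3, a second somatostatin receptor, rose by 1.62 ± 0.46 (adjusted p = 0.007), FFAR4, a receptor for long-chain fatty acids, by 2.06 ± 0.38 (adjusted p = 0.000219), and the glucagon receptor GCGR by 1.11 ± 0.31 (adjusted p = 0.00637). The receptors that rose were low, with no Fet-A/d5 library above 7.65 CPM, and GCGR lost its call without HSA/d1 replicate 1 (0.99) or Fet-A/d5 replicate 3 (0.94). A further one was CNR1, a cannabinoid receptor named after its values were seen, which gave 1.06 ± 0.36 (adjusted p = 0.0211) and lost its call without HSA/d1 replicate 1 (0.77), HSA/d1 replicate 2 (0.90), Fet-A/d5 replicate 2 (0.92) or Fet-A/d5 replicate 4 (0.96). Without HSA/d1 replicate 1 the list had 2 rises, and the exocytosis list had 1.

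Other islet hormones and genes of alpha, delta or PP cells had 3 of 11 members up and 1 down under fetuin-A (median 0.67), against 7 up under HSA (median 1.84). GC, the vitamin D-binding protein that alpha cells express, rose from 1.67, 1.86, 2.16 and 1.58 CPM to 9.14, 6.91, 9.62 and 7.65 CPM (2.19 ± 0.18, adjusted p = 2.36e-08), and under HSA to 7.89 to 10.3 CPM (2.24 ± 0.18, adjusted p = 2.2e-07). RBP4, the plasma carrier of retinol, rose from 10.9, 8.81, 6.47 and 5.89 CPM to 69.3, 61.3, 23.8 and 35.7 CPM (2.57 ± 0.41, adjusted p = 4.51e-05), more than under HSA (1.17 ± 0.40, difference 1.40 ± 0.39, adjusted p = 0.00806). LOXL4, a lysyl oxidase-like enzyme, gave 1.23 ± 0.48 (adjusted p = 0.044) and lost its call without HSA/d1 replicate 1 (1.26), HSA/d1 replicate 2 (1.37), Fet-A/d5 replicate 2 (0.61), HSA/d1 replicate 3 (1.17) or HSA/d1 replicate 4 (1.12). FAP, a protease also known as a fibroblast gene, fell from 6.81 to 10.7 CPM to 0.282 to 1.66 CPM (-2.99 ± 0.57, adjusted p = 0.000247). Among 18 genes that adult beta cells keep low or that mark immaturity, 2 rose and 2 fell (median 0.03), or 1 fell without Fet-A/d5 replicate 3. The shares over all genes tested were 4.74% up and 5.01% down. MYC rose from 52.9, 34.8, 41.7 and 38.7 CPM to 84.7, 134, 96.5 and 107 CPM with no overlap (1.33 ± 0.14, adjusted p = 2.84e-07), whereas under HSA it was at 32.2 to 45.7 CPM (-0.20 ± 0.14, adjusted p = 0.249). The difference of end points was 1.53 ± 0.14 (adjusted p = 1.07e-07). MGST1, a microsomal glutathione transferase, rose by 1.22 ± 0.25 (adjusted p = 0.000505). ARHGDIB, a gene known from leukocytes, fell by 1.94 on the log2 scale (adjusted p = 0.000227). CXCL12, a chemokine of stromal cells, gave -1.05 ± 0.26 (adjusted p = 0.00275) and lost its call without Fet-A/d5 replicate 3 (-0.97) or Fet-A/d5 replicate 4 (-0.99).

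**Figure D4:**
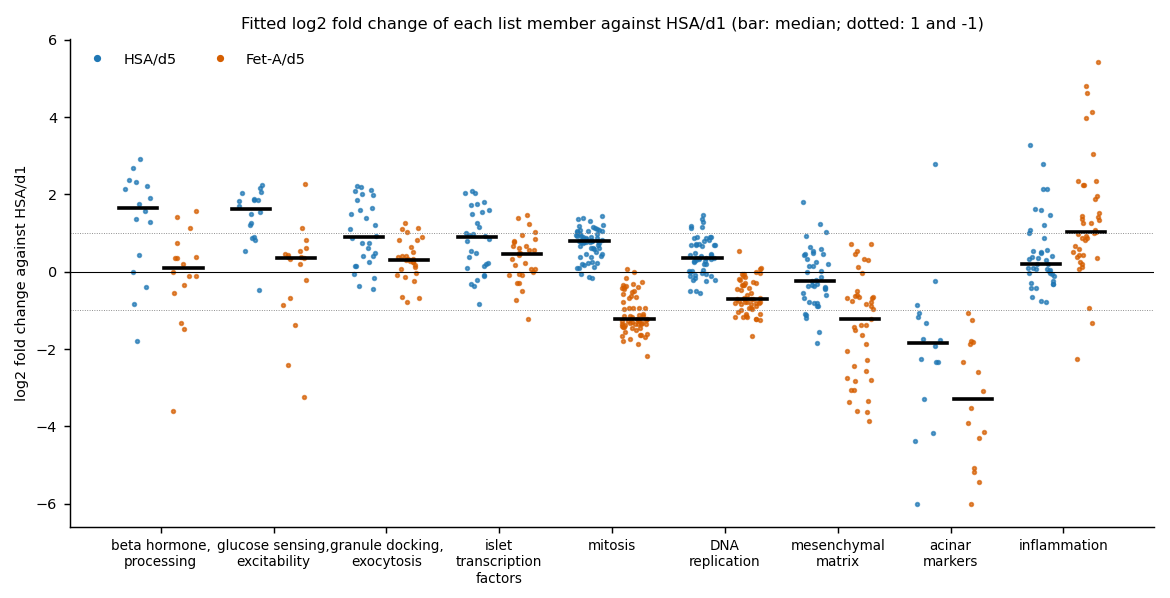
Fitted log2 fold change against HSA/d1 of each tested member of 9 lists, for HSA/d5 (blue) and Fet-A/d5 (orange), with a bar at the median. Both groups share the HSA/d1 libraries. The orange medians are 0.10 for beta cell hormones and processing (-0.29 without Fet-A/d5 replicate 3), -1.22 for mitosis, -3.30 for acinar markers and 1.03 for inflammation, and the blue ones are 1.66, 0.79, -1.84 and 0.21.

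Genes of mitosis fell below their level at the start of maturation. Of 61 tested kinases, cyclins and mitotic genes, 38 were downregulated under fetuin-A, against 5.01% of all genes tested. None was upregulated, and the median was -1.22. For 45 of the 61 all Fet-A/d5 libraries lay below all HSA/d1 libraries, against 17.9% of all genes tested. Under HSA 15 of the 61 were upregulated, against 6.70% of all genes, and none downregulated (median 0.79). In Fet-A/d5 vs HSA/d5, 49 were lower, against 6.29% of all genes. The study named 8 of these 61 genes from the same samples. CDK1, the kinase that drives entry into mitosis, was at 9.74, 13.5, 9.84 and 16.1 CPM in HSA/d1 and at 4.03, 2.02, 6.90 and 5.32 CPM in Fet-A/d5. All Fet-A/d5 libraries were lower, and in HSA/d5 the gene was at 23.3 to 32.0 CPM. The log2 fold changes were -1.44 ± 0.24 (adjusted p = 6.07e-05) under fetuin-A and 1.22 ± 0.22 (adjusted p = 0.000352) under HSA. TOP2A, a topoisomerase that untangles chromosomes, went from 33.8, 58.6, 38.4 and 64.3 CPM to 15.2, 7.10, 31.6 and 23.4 CPM (-1.34 ± 0.30, adjusted p = 0.00104). FOXM1, a transcription factor of mitotic genes, fell from 4.36 to 6.66 CPM to 1.13 to 3.52 CPM (-1.27 ± 0.23, adjusted p = 0.000184). KIF2C, a kinesin that depolymerises microtubules, had the largest fall among these 61 genes (-2.18 ± 0.30, adjusted p = 7.55e-06). BIRC5 (survivin) gave -1.31 ± 0.14 (adjusted p = 5.37e-07), the sister chromatid cohesion factor CDCA5 gave -1.35 ± 0.20 (adjusted p = 1.48e-05), and GTSE1, a microtubule-binding protein of dividing cells, gave -1.36 ± 0.16 (adjusted p = 1.32e-06). KIF2C and BIRC5 were not called under HSA, at -0.17 ± 0.28 and 0.09 ± 0.14.

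Within blocks the median log2 ratio of these 61 genes was -1.13, -2.0, -0.33 and -1.28 for Fet-A/d5 and 1.24, 0.61, 0.81 and 0.57 for HSA/d5, so its sign was the same in every block of each course. Without Fet-A/d5 replicate 3, 43 members were downregulated. DNA replication genes followed with 11 of 53 downregulated, none upregulated and a median of -0.70. Under HSA 6 were upregulated (median 0.36), and 26 were lower in Fet-A/d5 than in HSA/d5. The matching shares of all genes tested were 5.01%, 6.70% and 6.29%. MCM2 and MCM3 encode subunits of the replicative helicase. MCM2 went from 37.5, 29.8, 44.3 and 45.4 CPM to 17.7, 10.2, 21.4 and 20.9 CPM (-1.16 ± 0.16, adjusted p = 1.01e-05), and MCM3 gave -1.21 ± 0.14 (adjusted p = 1.78e-06). GINS1, a partner of this helicase, gave -1.10 ± 0.13 (adjusted p = 1.31e-06). Many members lay close to the threshold, and the count was 7 without Fet-A/d5 replicate 2 and 7 without HSA/d1 replicate 4. MCM2 lost its call without Fet-A/d5 replicate 2 (-0.97) and GINS1 without HSA/d1 replicate 4 (-0.99). Of 23 cell cycle inhibitors and p53 targets, 1 was called, CCND1, which encodes cyclin D1 and is a driver of G1 phase rather than an inhibitor. It rose from 50.5, 49.1, 56.2 and 64.8 CPM to 113, 184, 143 and 170.3 CPM (1.47 ± 0.14, adjusted p = 1.89e-07). The list median was -0.08, and with the block as a covariate GADD45B, a stress-induced gene named after its values were seen, was called down (-1.10, adjusted p = 0.000262), as it was without HSA/d1 replicate 3 (-1.08), HSA/d1 replicate 4 (-1.06) or Fet-A/d5 replicate 4 (-1.45). CDKN1A, the gene of the inhibitor p21 and chosen in the same way, gave -0.60 ± 0.17 (adjusted p = 0.00561). CDKN2A, the gene of p16/Ink4a, had between 0 and 3 reads in the libraries of these 3 groups and was not tested.

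Genes of mesenchymal cells and their matrix fell under fetuin-A. Over all genes tested, 4.74% were upregulated and 5.01% downregulated under fetuin-A, and 6.70% and 2.22% under HSA. Of 16 markers of stellate cells, fibroblasts and smooth muscle, 11 were downregulated and 1 upregulated under fetuin-A (median -1.70), against none in either direction under HSA (median -0.31, or -0.02 without HSA/d5 replicate 3). Their summed level was 6046, 4819.8, 8067 and 8143 CPM in HSA/d1 and 1775, 1302, 1342 and 3077 CPM in Fet-A/d5, with no overlap. In HSA/d5 it was 5388, 5736, 1769 and 6581 CPM, and replicate 3 was below the others and within the Fet-A/d5 range. Of 41 fibrillar and other matrix genes, 21 were downregulated and none upregulated (median -1.22), while under HSA 2 rose and 4 fell (median -0.25). Without HSA/d5 replicate 3, 3 fell under HSA and the median was -0.02, and with the block as a covariate 3 rose and 8 fell. In Fet-A/d5 vs HSA/d5, 22 of the 41 were lower, and 28 without HSA/d5 replicate 3. COL1A1, a chain of type I collagen, was at 2076, 1651, 2795 and 2558 CPM in HSA/d1 and 182, 129, 125 and 303 CPM in Fet-A/d5. All Fet-A/d5 libraries were several-fold lower (-3.62 ± 0.47, adjusted p = 4.1e-06). In HSA/d5 it was at 1312, 1518, 202 and 1862 CPM, and the difference of end points was -2.73 ± 0.45 (adjusted p = 9.36e-05), or -3.08 (adjusted p = 3.81e-07) without HSA/d5 replicate 3. COL3A1 (-3.60 ± 0.45, adjusted p = 3.01e-06) and COL6A3 (-3.07 ± 0.42, adjusted p = 7.23e-06) fell to a similar extent. POSTN, encoding the matrix protein periostin, went from 246, 381, 163 and 218 CPM to 24.8, 22.1, 13.9 and 39.2 CPM (-3.33 ± 0.52, adjusted p = 3.17e-05). PDGFRB, a growth factor receptor of stellate cells and pericytes, fell from 249.9 to 331 CPM to 67.2 to 144 CPM (-1.52 ± 0.29, adjusted p = 0.000287), and the desmin gene DES, chosen after its values were seen, gave -4.01 ± 0.90 (adjusted p = 0.00113). VIM, encoding vimentin and chosen in the same way, overlapped between the groups (-0.06 ± 0.33, adjusted p = 0.904). The marker that rose was the neurotrophin receptor NGFR, which Schwann cells also express (1.20 ± 0.46, adjusted p = 0.04). Its call was lost without HSA/d1 replicate 1 (1.05), HSA/d1 replicate 2 (1.03), HSA/d1 replicate 3 (1.22) or Fet-A/d5 replicate 4 (0.79).

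Of 41 basement membrane and epithelial adhesion genes, 4 rose and 1 fell (median 0.36), against 4.74% and 5.01% of all genes tested. Under HSA 3 rose (median 0.23), against 6.70% of all genes. LAMB2, a laminin chain, gave 1.02 ± 0.18 (adjusted p = 0.000121), and HSPG2, encoding perlecan, gave 1.01 ± 0.11 (adjusted p = 4.92e-07). ITGB4, an integrin of hemidesmosomes, gave 1.26 ± 0.23 (adjusted p = 0.000196), and NID1, encoding nidogen and named after its values were seen, gave 1.22 ± 0.43 (adjusted p = 0.0263) and lost its call without HSA/d1 replicate 1 (1.12), HSA/d1 replicate 2 (1.04), Fet-A/d5 replicate 3 (0.80) or Fet-A/d5 replicate 4 (0.90). HSPG2 also rose under HSA (1.05 ± 0.11, difference of end points -0.03 ± 0.11). COL4A6, a type IV collagen chain, fell by 1.05 on the log2 scale (adjusted p = 0.00774). Several of these calls lay near the threshold. LAMB2 was not called without HSA/d1 replicate 1 (0.99) or Fet-A/d5 replicate 4 (0.92), HSPG2 not without HSA/d1 replicate 2 (0.99), Fet-A/d5 replicate 2 (0.97) or HSA/d1 replicate 4 (0.97) and COL4A6 not without HSA/d1 replicate 1 (-0.94), and the list had 2 rises without either HSA/d1 replicate 1, HSA/d1 replicate 2 or Fet-A/d5 replicate 4. COL4A3 and COL4A4, 2 further type IV collagen chains outside the list and chosen after their values were seen, rose by 3.25 ± 0.49 and 3.05 ± 0.41 (adjusted p = 2.16e-05 and 6.01e-06). COL4A3 went from 1.07, 1.54, 1.50 and 1.05 CPM to 19.8, 16.6, 8.16 and 4.91 CPM, and its difference from HSA/d5 was 2.52 ± 0.47 (adjusted p = 0.000303).

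Ligands and receptors of the TGF-beta family were called in both directions, 4 of 46 up and 4 down (median 0.03), against 4.74% and 5.01% of all genes tested. Under HSA 1 rose and 1 fell, or 3 and 1 with the block. RANBP3L, which takes part in the nuclear export of SMAD proteins, had the largest rise among all called genes that have a symbol, a mean of at least 5 CPM and no overlap. Its raw counts were 3, 1, 1 and 1 in HSA/d1 and 165, 98, 117 and 182 in Fet-A/d5. The summed counts differed 94.9-fold, with a 95% exact interval of 43.3 to 260-fold that covers counting error only. In HSA/d5 it was at 0.767, 0.473, 0.750 and 0.769 CPM, above d1 in every library, and the difference of end points was 3.29 ± 0.40 (adjusted p = 3.68e-06). GDF15, a stress-induced ligand of this family, rose from 11.2, 13.8, 9.05 and 10.2 CPM to 64.6, 113, 64.3 and 68.6 CPM (2.81 ± 0.28, adjusted p = 2.36e-07), and under HSA to 16.9 to 25.6 CPM. ITGB8, an integrin chain that releases latent TGF-beta, rose by 1.27 ± 0.11 (adjusted p = 6.97e-08). TGFB1 fell from 92.6, 101, 77.9 and 95.4 CPM to 47.0, 41.9, 35.4 and 52.3 CPM (-1.05 ± 0.18, adjusted p = 7.68e-05), a call lost without Fet-A/d5 replicate 3 (-0.96). TGFB3 fell under fetuin-A (-1.44 ± 0.21, adjusted p = 1.66e-05) and under HSA (-1.45 ± 0.21, adjusted p = 4.11e-05), with a difference of end points of 0.02 ± 0.21. ENG, a co-receptor known from endothelial and stromal cells, fell from 119 to 135 CPM to 35.5 to 58.2 CPM (-1.48 ± 0.30, adjusted p = 0.000431), and in HSA/d5 it was at 133, 164, 39.5 and 119.7 CPM. SMAD7, the inhibitory SMAD induced by the pathway, gave -0.74 ± 0.27 (adjusted p = 0.0317) and did not pass the fold threshold. The remaining calls, named after their values were seen, were a rise of FST, the inhibitor follistatin (1.16 ± 0.23, adjusted p = 0.000356), and a fall of the ligand BMP5 (-1.60 ± 0.49, adjusted p = 0.0111).

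Of 42 genes known as targets of TGF-beta and SMAD2/3 in many cell types, 13 were downregulated and 3 upregulated under fetuin-A (median -0.70), against 4 and 1 under HSA (median -0.02). Over all genes tested, 5.01% were downregulated and 4.74% upregulated under fetuin-A, and 2.22% and 6.70% under HSA. Under HSA, 3 fell and 2 rose without HSA/d5 replicate 3 (median 0.14), and 6 fell and 3 rose with the block. This list shares COL1A1, COL3A1, POSTN, TIMP1 and other members with the matrix list. TIMP1, an inhibitor of matrix metalloproteinases, went from 1034, 689, 800.1 and 517 CPM to 149, 107, 100.5 and 95.2 CPM (-2.75 ± 0.28, adjusted p = 2.3e-07) and fell under HSA too (-1.83 ± 0.27, adjusted p = 4.34e-05). KLF10, an early TGF-beta response gene, fell from 268, 242, 162 and 169 CPM to 63.7, 46.7, 57.8 and 70.1 CPM (-1.82 ± 0.19, adjusted p = 3.95e-07). The 3 members that rose were CCN1, CCN2 and MYL9. CCN2, a matricellular protein that TGF-beta and YAP both induce, rose from 178, 207, 228 and 207 CPM to 771, 756, 720.5 and 658 CPM (1.83 ± 0.13, adjusted p = 3.65e-09). CCN1, its close relative, rose from 149 to 226 CPM to 471 to 1105 CPM (2.06 ± 0.24, adjusted p = 1.3e-06), whereas HSA/d5 was at 133 to 189.7 CPM. MYL9, a myosin light chain, rose by 1.37 ± 0.28 (adjusted p = 0.000594).

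The rises of CCN1 and CCN2 recurred in the list of Notch, Hippo and Wnt targets, where 4 of 30 rose and 5 fell (median -0.28), and 3 rose and 1 fell under HSA. The shares over all genes tested were 4.74% up and 5.01% down under fetuin-A, and 6.70% and 2.22% under HSA. ANKRD1, a cardiac ankyrin repeat protein and YAP target, rose from 78.3, 133, 61.2 and 66.6 CPM to 652, 1000.5, 599 and 549 CPM with no overlap (3.04 ± 0.31, adjusted p = 3.18e-07). The rise under HSA was smaller (1.25 ± 0.30), and the difference of end points was 1.79 ± 0.30 (adjusted p = 0.000107). NOTUM, a secreted inhibitor of Wnt, gave 2.13 ± 0.34 (adjusted p = 4.66e-05) at levels below 1.5 CPM. The Notch targets HEYL and HES4 fell, as did the Wnt regulators SFRP1 (-1.91 ± 0.46), SFRP2 (-2.23 ± 0.59) and NKD1 (-1.88 ± 0.52), which were named after their values were seen. HEYL, which is expressed in vascular smooth muscle and pericytes, went from 23.7, 16.2, 26.7 and 20.9 CPM to 0.806, 0.846, 0.856 and 2.02 CPM (-4.28 ± 0.37, adjusted p = 4.54e-08), and HES4 from 40.2 to 47.4 CPM to 12.9 to 16.1 CPM (-1.51 ± 0.16, adjusted p = 4.91e-07). Under HSA both had lower values than d1, at -1.65 ± 0.32 and -0.96 ± 0.16.

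Of 27 genes of insulin, IGF and growth hormone or prolactin signalling, 2 rose and 6 fell (median -0.09), against 1 and 2 under HSA, 2 and 2 without HSA/d5 replicate 3 and 2 and 3 with the block. All genes tested gave 4.74% up and 5.01% down under fetuin-A, and 6.70% and 2.22% under HSA. IRS1 and IRS2, the docking proteins of the insulin receptor, were the rises. IRS1 went from 7.46, 6.72, 8.16 and 9.82 CPM to 28.3, 24.9, 20.6 and 25.2 CPM (1.62 ± 0.12, adjusted p = 9.67e-09), and IRS2 gave 1.08 ± 0.16 (adjusted p = 1.41e-05), a call lost without HSA/d1 replicate 1 (0.99). IGF1, a growth factor of stromal cells named after its values were seen, fell from 1.37, 1.27, 3.61 and 3.59 CPM to 0.269, 0.0470, 0.403 and 0.517 CPM (-2.99 ± 0.66, adjusted p = 0.000997). IGFBP4, a binding protein of IGF made by stromal cells, fell from 371, 346, 454 and 505 CPM to 91.9, 48.8, 61.8 and 119 CPM (-2.38 ± 0.35, adjusted p = 1.89e-05). The growth hormone receptor GHR fell by 1.14 on the log2 scale (adjusted p = 4.23e-05), a call lost without Fet-A/d5 replicate 3 (-0.97).

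Acinar genes fell under fetuin-A, and several of them fell under HSA as well. Of 16 tested markers, 13 were downregulated and none upregulated (median -3.30), while under HSA 6 fell and 1 rose (median -1.84). The shares of all genes tested that were downregulated were 5.01% under fetuin-A and 2.22% under HSA. With the block as a covariate, all 16 fell under fetuin-A and 12 under HSA, and without HSA/d5 replicate 3 3 fell under HSA. In Fet-A/d5 vs HSA/d5, 4 were lower, or 8 with the block and 2 without Fet-A/d5 replicate 3. The summed level of 19 acinar genes was 30342, 17553, 15002 and 7277 CPM in HSA/d1, 2113, 1034, 922 and 145 CPM in Fet-A/d5 and 12437, 5046, 3062 and 1033 CPM in HSA/d5. Libraries of 1 group differed several-fold, and replicate 4 was the lowest of each. Within blocks the median log2 ratio of members was -3.09, -3.49, -3.39 and -3.74 under fetuin-A and -1.50, -1.83, -2.18 and -2.23 under HSA. CPA1, a carboxypeptidase chosen after its values were seen, was at 16566, 8749.9, 7710.5 and 3923 CPM in HSA/d1 and 1282, 559, 552 and 72.9 CPM in Fet-A/d5 (-3.90 ± 0.83, adjusted p = 0.000754). PLA2G1B, the pancreatic phospholipase A2, had the second largest fall by the rule for named genes. It went from 994, 636, 352 and 194 CPM to 19.4, 8.41, 3.02 and 2.38 CPM (-6.02 ± 0.90, adjusted p = 2.22e-05), and to 2.46 to 15.3 CPM under HSA (-6.00 ± 0.90, adjusted p = 5.99e-05), with a difference of end points of -0.02 ± 0.80. The lipase cofactor CLPS (-5.44 ± 0.72), the carboxyl ester lipase CEL (-4.13 ± 0.95) and the lipase-related PNLIPRP1 (-2.59 ± 0.41) and PNLIPRP2 (-5.08 ± 1.49) fell with no overlap, at adjusted p values from 5.44e-06 to 0.0088. PNLIPRP2 lost its call without HSA/d1 replicate 1 (-3.35). PRSS2, a trypsinogen chosen after its values were seen, fell under fetuin-A and rose under HSA, from 24.5, 17.6, 42.4 and 21.5 CPM in HSA/d1 to 5.87, 2.44, 15.8 and 5.17 CPM in Fet-A/d5 and to 397, 90.1, 167 and 74.9 CPM in HSA/d5. The log2 fold changes were -1.86 ± 0.70 (adjusted p = 0.0354) and 2.78 ± 0.69 (adjusted p = 0.00372) respectively, and the difference of end points was -4.64 ± 0.76 (adjusted p = 8.85e-05). PRSS2 belongs to a family of near-identical genes whose reads the counting may have split, and its fall lost the call without HSA/d1 replicate 1 (-1.90), Fet-A/d5 replicate 1 (-1.77), Fet-A/d5 replicate 2 (-1.57), HSA/d1 replicate 3 (-1.54) or Fet-A/d5 replicate 4 (-1.73).

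**Figure D5:**
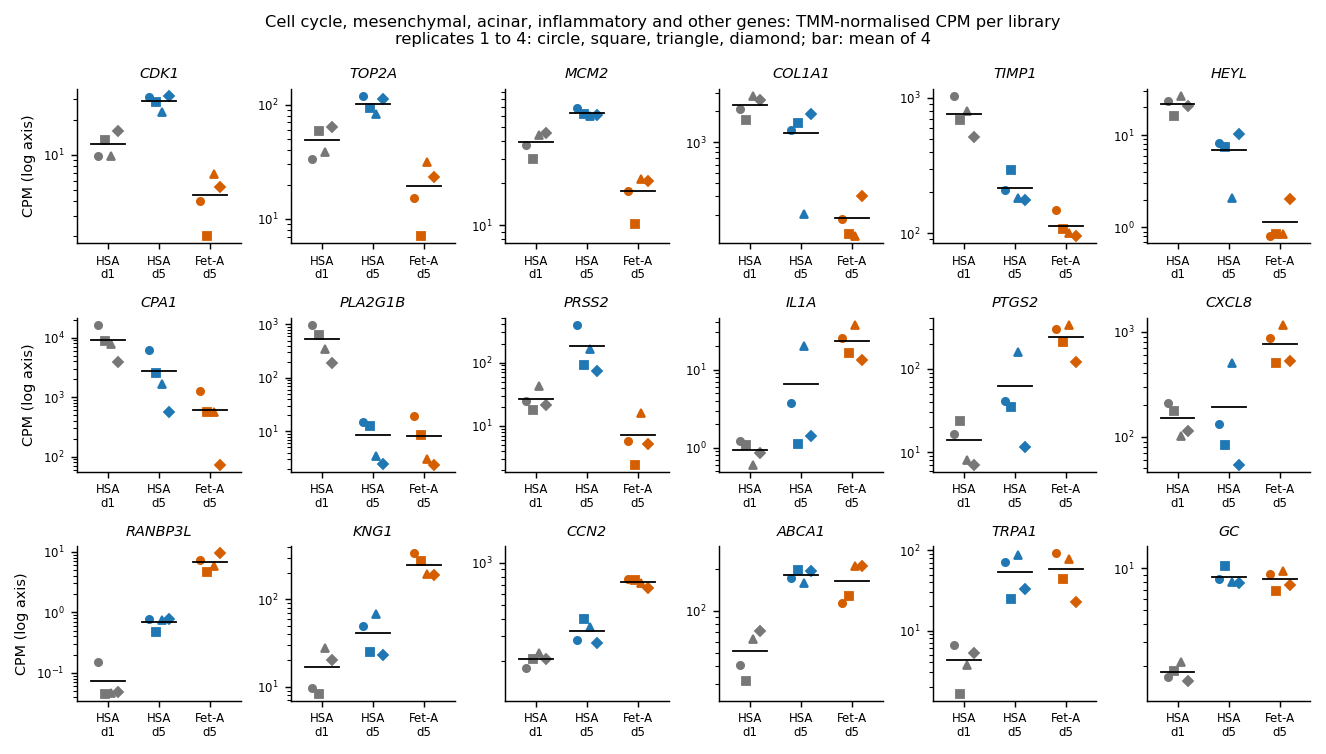
Levels of 18 genes of the cell cycle, mesenchyme, acinar cells, inflammation and other groups in HSA/d1 (grey), HSA/d5 (blue) and Fet-A/d5 (orange), as TMM-normalised CPM on log axes, with a symbol for each replicate and a bar at the mean of 4. HSA/d5 replicate 3 (blue triangle) is the lowest HSA/d5 library in COL1A1 and the highest in IL1A, PTGS2 and CXCL8, and ABCA1, TRPA1, GC and PLA2G1B reach overlapping levels in both d5 groups.

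Inflammatory genes made up the list with the largest number of rises. Of 41 inflammation and NF-kappa-B targets, 20 were upregulated and 1 downregulated (median 1.03), against 5 and none under HSA (median 0.21). Among all genes tested, 4.74% were upregulated under fetuin-A and 6.70% under HSA. Leaving out Fet-A/d5 replicate 3 gave 16 upregulated and 2 downregulated under fetuin-A, and with the block 8 rose under HSA. Without HSA/d5 replicate 3 no member rose under HSA and 1 fell (median -0.07). In Fet-A/d5 vs HSA/d5, 17 members were higher, or 21 without HSA/d5 replicate 3 and 11 without Fet-A/d5 replicate 3. IL1A, encoding the cytokine interleukin-1 alpha, was at 1.22, 1.09, 0.609 and 0.862 CPM in HSA/d1 and 25.4, 16.3, 37.5 and 13.3 CPM in Fet-A/d5. All Fet-A/d5 libraries exceeded all d1 libraries (4.61 ± 0.71, adjusted p = 3.12e-05), and HSA/d5 stood at 3.75, 1.13, 19.9 and 1.43 CPM. PTGS2, the inducible cyclooxygenase, went from 16.6, 23.8, 8.16 and 7.09 CPM to 303, 208, 337 and 121 CPM (4.12 ± 0.70, adjusted p = 7.97e-05). The chemokine gene CXCL8, chosen after its values were seen, rose from 209, 175, 103 and 112 CPM to 869, 503, 1168 and 529 CPM (2.36 ± 0.49, adjusted p = 0.000627), while HSA/d5 was at 131, 83.5, 503 and 54.1 CPM. IL6 and CSF3, encoding the cytokine interleukin-6 and the granulocyte growth factor G-CSF, started from below 2 CPM. IL6 reached 8.37, 2.63, 22.4 and 17.7 CPM (3.96 ± 0.86, adjusted p = 0.000911) and CSF3 reached 6.05, 4.09, 18.7 and 7.34 CPM (5.43 ± 1.07, adjusted p = 0.000373). CCL2, a chemokine for monocytes, rose by 2.25 ± 0.27 (adjusted p = 1.59e-06), the adhesion molecule ICAM1 by 1.96 ± 0.24 (adjusted p = 2.83e-06) and the mitochondrial superoxide dismutase SOD2 by 1.32 ± 0.13 (adjusted p = 1.79e-07). SOD2 was not called under HSA (0.08 ± 0.13). TLR4, the receptor of bacterial lipopolysaccharide, rose from 20.2, 25.3, 23.5 and 21.6 CPM to 59.5, 50.7, 55.5 and 53.1 CPM (1.27 ± 0.19, adjusted p = 1.92e-05), and HSA/d5 was at 18.3 to 34.5 CPM. The member that fell was TNFAIP6, a hyaluronan-binding protein made by stromal cells, from 9.64 to 14.3 CPM to 1.97 to 6.14 CPM (-1.33 ± 0.30, adjusted p = 0.00112). With the block as a covariate 22 members rose and 2 fell, the further fall being LBP, a lipopolysaccharide-binding protein named after its values were seen (-2.25, adjusted p = 0.00273). Leukocyte markers had few calls under fetuin-A, where 4.74% of all genes tested were upregulated and 5.01% downregulated. Of 20 tested, 1 was upregulated and none downregulated under fetuin-A (median 0.20), 7 were upregulated under HSA, and the summed level of 23 markers was 218 to 267 CPM in HSA/d1, 213 to 273 CPM in Fet-A/d5 and 260.3 to 367 CPM in HSA/d5. PTPRC, the pan-leukocyte gene CD45, was at 1.01 to 2.03 CPM and 1.55 to 3.73 CPM in the first 2 of these groups (0.72 ± 0.53, adjusted p = 0.291). The leukocyte marker that rose was the macrophage scavenger receptor CD163 (1.25 ± 0.38, adjusted p = 0.0104), a call lost without Fet-A/d5 replicate 1 (1.00). Interferon-stimulated genes had 1 of 21 members up (median 0.0013), namely CXCL10 (2.34 ± 0.82, adjusted p = 0.0251), whose call was lost without HSA/d1 replicate 2 (2.23), HSA/d1 replicate 3 (2.02), Fet-A/d5 replicate 3 (1.34) or HSA/d1 replicate 4 (2.08). Without Fet-A/d5 replicate 3 the median of this list was -0.41 and 1 member fell, as did 1 leukocyte marker.

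Of 19 duct cell markers, 2 rose and 2 fell (median -0.37), against 4.74% and 5.01% of all genes tested. The summed level of duct markers was 12799.9 to 16342 CPM in HSA/d1 and 13698 to 15976 CPM in Fet-A/d5. CFTR, the chloride channel of duct cells, rose from 767, 991, 1069 and 943 CPM to 2641, 2455, 2295 and 2014 CPM (1.32 ± 0.20, adjusted p = 2.24e-05), whereas AQP1, a water channel also found in capillaries, fell from 42.7, 18.4, 26.5 and 29.8 CPM to 4.39, 4.14, 5.29 and 12.7 CPM (-2.15 ± 0.34, adjusted p = 4.18e-05). LCN2, a siderophore-binding protein that is also on the inflammation list, gave 1.43 ± 0.29 (adjusted p = 0.000435) and lost its call without Fet-A/d5 replicate 1 (0.96). TFF2, a trefoil peptide, fell under fetuin-A (-3.28 ± 0.92, adjusted p = 0.00654) and under HSA (-3.12 ± 0.91, adjusted p = 0.011). The duct lineage factor SOX9 and the keratin gene KRT7, both chosen after their values were seen, gave -0.06 ± 0.21 and -0.45 ± 0.20 and were not called. Without HSA/d1 replicate 3, 4 duct markers fell. Of 13 endothelial markers 2 fell and none rose (median -0.70). They were ENG and the angiopoietin receptor TEK, which gave -1.16 ± 0.36 (adjusted p = 0.0122) and was not called without Fet-A/d5 replicate 2 (-0.99), while the endothelial adhesion molecule PECAM1 gave -0.69 ± 0.32 (adjusted p = 0.0854). The endothelial list had 5 falls without Fet-A/d5 replicate 4. Of 9 Schwann and neural markers 3 rose (median 0.94), as did 3 under HSA (median 1.31), and 5 in each with the block as a covariate. Without HSA/d1 replicate 1, HSA/d1 replicate 2 or Fet-A/d5 replicate 4, 1 rose, and without HSA/d1 replicate 4, 5 rose. Replicate 4 had the highest summed level in every group, at 1087 CPM in HSA/d1 and 2630 CPM in Fet-A/d5. SOX10, the Schwann lineage factor, gave 1.24 ± 0.48 (adjusted p = 0.0417) and lost its call without HSA/d1 replicate 1 (1.05), HSA/d1 replicate 2 (1.06), HSA/d1 replicate 3 (1.26) or Fet-A/d5 replicate 4 (0.77). The glial cadherin CDH19 gave 1.42 ± 0.49 (adjusted p = 0.0241) and lost its call without HSA/d1 replicate 1 (1.21), HSA/d1 replicate 2 (1.16) or Fet-A/d5 replicate 4 (1.04), whereas the adhesion molecule L1CAM kept it (1.49 ± 0.41, adjusted p = 0.0059) in all 8 fits that left out a library. The red blood cell gene HBB fell by 2.40 on the log2 scale, at levels below 3 CPM (adjusted p = 0.000637), and reads of globin genes may be shared among near-identical copies.

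Several lipid genes rose in both media, and their end points did not differ by the test. ABCA1, which exports cholesterol and is induced by liver X receptors, went from 41.3, 31.3, 62.7 and 72.2 CPM in HSA/d1 to 113, 127, 207 and 209.8 CPM in Fet-A/d5 and 172, 196, 158 and 192 CPM in HSA/d5. The log2 fold changes were 1.66 ± 0.21 (adjusted p = 3.71e-06) and 1.79 ± 0.21 (adjusted p = 6.65e-06), and the difference of end points was -0.13 ± 0.21 (adjusted p = 0.66). Its partner ABCG1 gave 1.79 ± 0.27 and 1.71 ± 0.27, with a difference of 0.08 ± 0.26. They led the list of cholesterol synthesis and uptake, in which 3 of 28 rose and 1 fell (median 0.18), or 2 fell with the block as a covariate, the further one being INSIG1, an inhibitor of sterol synthesis named after its values were seen (-1.46, adjusted p = 3.03e-06). SREBF1, a transcription factor of lipid synthesis, gave 1.04 ± 0.10 (adjusted p = 2.39e-07) and lost its call without HSA/d1 replicate 2 (1.00) or Fet-A/d5 replicate 2 (0.96), and the intestinal-type cholesterol transporter NPC1L1 fell from 9.80 to 30.3 CPM to 3.98 to 7.93 CPM (-1.95 ± 0.29, adjusted p = 1.95e-05). Of 43 genes of fatty acid synthesis, storage and oxidation, 5 rose and 2 fell (median 0.08). The counts of both lipid lists stand against 4.74% up and 5.01% down over all genes tested. ACACA, the enzyme that commits acetyl-CoA to fatty acid synthesis, rose from 72.1 to 85.5 CPM to 149.8 to 229.6 CPM (1.16 ± 0.14, adjusted p = 2.1e-06) and under HSA by 1.16 ± 0.14, with a difference of end points of 0.0027 ± 0.14. PPARGC1A, a co-activator of mitochondrial genes, rose from 42.1, 47.3, 49.9 and 52.0 CPM to 172, 161, 121 and 120.5 CPM (1.59 ± 0.16, adjusted p = 2.88e-07), and its difference from HSA/d5 was 1.05 ± 0.16 (adjusted p = 3.97e-05). PPARA gave 1.06 ± 0.18 (adjusted p = 9.98e-05) and the desaturase SCD gave 1.01 ± 0.18 (adjusted p = 0.000181). Both lay near the threshold, PPARA losing its call without HSA/d1 replicate 1 (0.99), HSA/d1 replicate 2 (0.94) or Fet-A/d5 replicate 3 (0.97) and SCD without HSA/d1 replicate 2 (0.94), Fet-A/d5 replicate 2 (0.95), HSA/d1 replicate 3 (0.94) or Fet-A/d5 replicate 4 (0.98). DGAT2, which completes triglyceride synthesis and was named after its values were seen, rose as well, with 1.14 ± 0.30 (adjusted p = 0.00387), and lost its call without Fet-A/d5 replicate 2 (0.74). The list had 3 rises without HSA/d1 replicate 2 or without Fet-A/d5 replicate 2, and 1 fall without Fet-A/d5 replicate 3. The falls were CIDEC, a lipid droplet protein (-1.68 ± 0.41, adjusted p = 0.00228), and PDK4, a kinase that restrains pyruvate oxidation, which gave -1.15 ± 0.23 (adjusted p = 0.000536) and was not called without HSA/d1 replicate 2 (-0.99) or Fet-A/d5 replicate 3 (-0.98).

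Most stress and metabolic lists had few calls under fetuin-A, where 4.74% of all genes tested were upregulated and 5.01% downregulated. Metallothioneins and oxidative stress genes had larger shares called in both directions, though from few genes. Of 35 genes of the unfolded protein response and amino acid stress, 1 rose and 2 fell (median 0.28). The rise was GDF15, and there were 3 rises without HSA/d1 replicate 3 and 2 without Fet-A/d5 replicate 3. XBP1, a transcription factor of the endoplasmic reticulum, fell from 1152, 988, 736 and 606 CPM to 419, 362, 326 and 285 CPM (-1.32 ± 0.27, adjusted p = 0.000454), with -0.74 ± 0.26 under HSA. DDIT4, an inhibitor of mTOR induced by hypoxia, fell under fetuin-A (-1.58 ± 0.21, adjusted p = 7.43e-06) and under HSA (-1.40 ± 0.21, adjusted p = 6.7e-05), with a difference of end points of -0.19 ± 0.21. Of 36 genes of glycolysis and hypoxia, 1 rose and 2 fell under fetuin-A (median -0.15). Under HSA 7 fell (median -0.35), against 2.22% of all genes tested. The count of falls under fetuin-A was 4 without HSA/d1 replicate 3 and 1 without Fet-A/d5 replicate 3. HIF1A, the oxygen-sensitive transcription factor, rose from 309.6, 303, 324 and 319 CPM to 708, 667, 672 and 639 CPM (1.10 ± 0.07, adjusted p = 1.63e-09), with HSA/d5 at 287 to 402 CPM. EGLN3, an oxygen sensor, gave -1.12 ± 0.39 (adjusted p = 0.0253) and lost its call without HSA/d1 replicate 1 (-0.67), HSA/d1 replicate 2 (-0.95), Fet-A/d5 replicate 2 (-1.07), Fet-A/d5 replicate 3 (-1.02) or Fet-A/d5 replicate 4 (-1.05). Of 25 metallothioneins and oxidative stress genes, 3 rose and 2 fell (median -0.08), with 1 fall without Fet-A/d5 replicate 3 and 1 with the block. The aldose reductase AKR1B1 rose from 45.5 to 62.1 CPM to 109 to 172 CPM (1.36 ± 0.12, adjusted p = 4.59e-08). The transferrin receptor TFRC gave 1.11 ± 0.19 (adjusted p = 9.49e-05) and lost its call without Fet-A/d5 replicate 1 (0.93). NQO1, a quinone reductase, gave -1.03 ± 0.33 (adjusted p = 0.0152), was not called with the block (-0.94, adjusted p = 0.000364) and lost its call without HSA/d1 replicate 1 (-0.86), HSA/d1 replicate 2 (-0.73), Fet-A/d5 replicate 3 (-0.97) or Fet-A/d5 replicate 4 (-0.97). The metallothionein MT3 gave -2.36 ± 0.76 (adjusted p = 0.0162) and was not called without HSA/d1 replicate 1 (-1.94). Its reads may be shared with other metallothioneins. Of 37 genes of ribosome biogenesis and MYC targets, 1 was called, MYC itself (median 0.10).

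By the rule of size, the largest rises among called genes with a symbol, a mean of at least 5 CPM and no overlap were RANBP3L, CSF3, IL1A, CHI3L2, PLEKHS1, PTGS2, IL6, HRG, OLFM4, KNG1, TRPA1 and TMPRSS11F. KNG1, encoding the plasma protein kininogen, went from 9.64, 8.31, 28.0 and 20.4 CPM to 337, 275, 196 and 190.5 CPM (3.91 ± 0.44, adjusted p = 9.05e-07). HSA/d5 stood between, at 49.9, 24.7, 68.8 and 23.0 CPM, and the difference of end points was 2.58 ± 0.41 (adjusted p = 7.1e-05). HRG, the histidine-rich plasma glycoprotein, rose from 0.406, 0.999, 0.469 and 0.287 CPM to 11.5, 13.4, 6.39 and 2.74 CPM (3.96 ± 0.67, adjusted p = 7.71e-05). TRPA1, a cation channel opened by irritants, reached overlapping levels in both media, 22.4 to 91.6 CPM in Fet-A/d5 and 24.5 to 87.1 CPM in HSA/d5, from 1.64 to 6.65 CPM at d1 (3.78 ± 0.53, adjusted p = 9.55e-06). OLFM4, a secreted glycoprotein of gut epithelium, rose from 11.4, 31.2, 13.3 and 12.5 CPM to 132, 174, 559.6 and 196 CPM (3.96 ± 0.82, adjusted p = 0.000599). PLEKHS1 (4.14 ± 0.68, adjusted p = 5.86e-05), CHI3L2 (4.18 ± 0.83, adjusted p = 0.000415) and the protease TMPRSS11F (3.71 ± 0.44, adjusted p = 1.44e-06) completed the rises. In HSA/d5, OLFM4 was high in replicate 3 alone, at 26.4, 15.6, 306 and 16.0 CPM.

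The 12 largest falls by the same rule included SFTPB, PLA2G1B, CLPS, AFP, PNLIPRP2, CILP, CORIN, KIRREL2, HEYL, LTC4S and CEL, among them the acinar markers PLA2G1B, CLPS, PNLIPRP2 and CEL. SFTPB, a surfactant protein, had raw counts of 141, 69, 101 and 124 in HSA/d1 and 1, 1, 2 and 0 in Fet-A/d5. Its summed counts were 107-fold higher in HSA/d1, with a 95% exact interval of 41.6 to 396-fold. This interval covers counting error only and not the spread between libraries. AFP, the fetal plasma protein alpha-fetoprotein, fell from 50.3, 52.6, 19.3 and 12.8 CPM to 1.21, 1.18, 0.705 and 0.103 CPM (-5.37 ± 0.88, adjusted p = 6.05e-05), and HSA/d5 was at 6.91, 13.5, 1.50 and 1.79 CPM. CILP, a matrix protein of cartilage and fibroblasts, fell from 24.4 to 45.2 CPM to 0.851 to 2.33 CPM (-4.68 ± 0.64, adjusted p = 8.13e-06). CORIN, a protease that activates natriuretic peptide, gave -4.65 ± 0.74 (adjusted p = 4.39e-05). KIRREL2, an adhesion protein of islet cells, gave -4.35 ± 0.91 (adjusted p = 0.000605), and LTC4S, the leukotriene C4 synthase, gave -4.20 ± 0.78 (adjusted p = 0.000221). ALB, the pig's own albumin gene, was at 1.78 to 2.34 CPM in HSA/d1 and 1.66 to 1.93 CPM in Fet-A/d5 (-0.13 ± 0.25, adjusted p = 0.707). AHSG, the pig's own fetuin-A gene, had 0, 0, 3 and 2 reads in HSA/d1 and 1 read in each Fet-A/d5 library, and was not tested.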

How the data were processed

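Strand-specific, poly-A-selected RNA was sequenced as 75-base single reads. Per the submitters' processing notes, FastQC 0.11.8, Trim Galore 0.5, STAR 2.6.1, Picard, featureCounts 1.6.2 and DESeq2 1.22.1 were used; the genome build, annotation and strand setting are not given in the sources used here. The authors deposited whole-number read counts per gene, not normalised, for 25880 Ensembl genes and 24 libraries, of which 2 of the 8 compared here had 2 runs in 1 column. Symbols for 14857 genes came from a table of gene names. Genes were filtered with filterByExpr, which left 14842 genes, 12522 of them with a symbol. Library totals of 19758438 to 22967442 make counting error small for genes above a few CPM. TMM normalisation and glmQLFTest of edgeR 4.0.16 (R 4.3.3) were applied to all 24 libraries, with 1 coefficient per condition and no block. In a check on counts simulated for this comparison (14528 genes), 186 of the 200 genes given a log2 change of 2 were called, beside 3 false calls. The simulated libraries had no block effect, and the changed genes had a mean above 1 CPM in HSA/d1. The check therefore does not cover smaller changes, rarer genes or libraries that deviate together. Nothing ties a library to an animal or preparation, so p values measure the spread between these libraries.

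Library numbers repeat through the conditions in blocks. The deviations of same-block HSA/d1 and Fet-A/d5 libraries from their group means correlated at 0.401 to 0.603 (4 pairs). The other pairs (12) gave -0.436 to 0.229, so block numbers were taken to pair the libraries. Among these other pairs, replicates 1 and 2 correlated at 0.192 to 0.199 and replicates 3 and 4 at 0.216 to 0.229. Pairs of replicate 1 or 2 with replicate 3 or 4 gave -0.436 to -0.279. The replicates are thus not interchangeable. The labels do not tell whether this split follows animal age, which was not tested. The blocked fit was an alternative, and for named genes its values are given where a call of Fet-A/d5 vs HSA/d1 changed. Other alternatives were the size factors or Wald test (without independent filtering) of DESeq2 1.42.0, upper-quartile scaling, other count filters, a fit of the 2 conditions, glmTreat and each library left out. The members and the 31 lists were chosen with earlier results of these data known. Genes were named by rule: up to 4 called genes per list by smallest p, members called against their list, the 12 largest rises and falls, and a fixed set. Genes outside it are marked. A few genes that the rule names are not reported here. No column was left unused. Sequences were not used here, and gene positions served only to give the order of the genes beside AHSG.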

Additional observations from a re-analysis of the deposited data

Results flagged for a closer look

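In 29 of the 342 groups of 4 libraries tested, a single library lay further from the others than Dixon's criterion allows. The groups include the HSA/d1 and the Fet-A/d5 libraries of each gene named and tested. By chance this happens in about 1 in 20 groups. In each, the gap to the nearest library took up most of the range of the group. No explanation was tested for any of them. Fet-A/d5 replicate 4 was the highest of its group for AQP1 (12.7 CPM), CDH19 (61.5 CPM), CILP (2.33 CPM), G6PC2 (2.89 CPM), GADD45B (61.4 CPM), HEYL (2.02 CPM), NGFR (367 CPM) and SOX10 (259 CPM). Fet-A/d5 replicate 1 was the highest of its group for EGLN3 (32.0 CPM), FFAR4 (2.96 CPM), HPX (21.5 CPM) and SLC2A2 (11.7 CPM). Fet-A/d5 replicate 2 was the highest of its group for DGAT2 (8.46 CPM), GDF15 (113 CPM) and LOXL4 (236 CPM). Fet-A/d5 replicate 3 was the highest of its group for DLK1 (6.75 CPM), OLFM4 (559.6 CPM) and TTR (111 CPM). HSA/d1 replicate 1 was the highest of its group for HPX (2.28 CPM), PNLIPRP2 (28.1 CPM) and RANBP3L (0.152 CPM). HSA/d1 replicate 2 was the highest of its group for MGST1 (108 CPM) and OLFM4 (31.2 CPM). HSA/d1 replicate 4 was the highest of its group for ENG (135 CPM) and IL6 (1.82 CPM). Fet-A/d5 replicate 1 was the lowest of its group for HES4 (12.9 CPM). Fet-A/d5 replicate 2 was the lowest of its group for DES (0.0470 CPM). HSA/d1 replicate 1 was the lowest of its group for SOD2 (98.9 CPM). HSA/d1 replicate 4 was the lowest of its group for CD163 (0.766 CPM).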

How the results depend on the processing

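The counts of Fet-A/d5 vs HSA/d1 were 704 up and 743 down, and each left-out library gave 593 to 780 up and 672 to 779 down. Testing against the fold threshold itself (glmTreat) left 125 up and 159 down, or 84 and 30 for HSA/d5 vs HSA/d1 and 29 and 227 for Fet-A/d5 vs HSA/d5. Requiring 10 counts in every library, which tests fewer genes, left 494 down in Fet-A/d5 vs HSA/d1, 187 down in HSA/d5 vs HSA/d1 and 169 up in Fet-A/d5 vs HSA/d5, with 12 rises among inflammatory genes and 8 falls among acinar genes. Leaving out a library gave 797 to 1120 up and 245 to 404 down in HSA/d5 vs HSA/d1, and 217 to 389 up and 756 to 1056 down in Fet-A/d5 vs HSA/d5. With the block as a covariate, which pairs the libraries, 784 genes were up and 840 down in Fet-A/d5 vs HSA/d1 and 1157 up and 412 down in HSA/d5 vs HSA/d1. Of the 167 genes named and tested, the block changed the Fet-A/d5 vs HSA/d1 calls given beside the results (CPE, NQO1, MAFA, G6PC2, DLK1, GADD45B, LBP and INSIG1) and no other call of that comparison. Calls of single genes in HSA/d5 vs HSA/d1 and Fet-A/d5 vs HSA/d5 are given without such a check. Of 144 named genes that were called, 103 were called in every alternative that tested them but glmTreat, and 64 with glmTreat. Upper-quartile scaling lost HSPG2, LAMB2, SCD and SREBF1 and called GADD45B, and shifted the median over all genes by under 0.1. The Wald test of DESeq2 called DLK1 and LBP, no filter on low counts lost LOXL4 and SOX10, and fitting the 2 conditions alone lost 11 named genes, among them CHGA, PCSK1 and KCNK16. No named gene called in Fet-A/d5 vs HSA/d1 changed direction. The cause of these changes was not tested. Genes below 1 CPM rest on few reads, and their changes are less certain.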

Other observations

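Genes of plasma proteins other than the albumin and fetuin-A genes were followed as a group that no list held. The genes of this section were chosen after their values were seen. In the RefSeq annotation of Sscrofa11.1, HRG and KNG1 are the next protein-coding genes after AHSG and FETUB on chromosome 13. HRG and KNG1 rose under fetuin-A, as given above, whereas AHSG had at most 3 reads and FETUB at most 4 reads in any library of the 3 groups, and both were untested. HPX, encoding the haem carrier hemopexin, was at 2.28, 1.23, 1.17 and 1.10 CPM in HSA/d1 and 21.5, 4.23, 5.99 and 6.41 CPM in Fet-A/d5, with no overlap (2.72 ± 0.43, adjusted p = 3.64e-05). CP, encoding the copper carrier ceruloplasmin, rose from 29.9, 32.5, 23.5 and 20.6 CPM to 188, 100.4, 279 and 116 CPM (2.68 ± 0.30, adjusted p = 6.78e-07). Both also rose under HSA, at 2.20 ± 0.42 and 2.58 ± 0.29, and the differences of end points were 0.52 ± 0.39 and 0.10 ± 0.28. TTR, encoding transthyretin, which islet cells also express, gave 0.02 ± 0.27 (adjusted p = 0.955) under fetuin-A and 1.84 ± 0.28 (adjusted p = 6.01e-05) under HSA. C6, a complement component, fell in both media (-3.22 ± 0.55, adjusted p = 9.39e-05, and -1.78 ± 0.51 under HSA).

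The related arrestin-domain genes TXNIP and ARRDC4, both known to be induced by glucose, fell together. TXNIP was at 1566, 1787, 997 and 1022 CPM in HSA/d1 and 392, 391, 319.8 and 283 CPM in Fet-A/d5. All Fet-A/d5 libraries were lower (-1.95 ± 0.27, adjusted p = 7.36e-06), the change under HSA was -0.66 ± 0.26 and the difference of end points -1.30 ± 0.26 (adjusted p = 0.000636). ARRDC4 fell from 201, 201, 126 and 145 CPM to 77.8, 48.0, 60.1 and 55.3 CPM (-1.48 ± 0.18, adjusted p = 1.61e-06), with a difference of end points of -1.06 ± 0.17 (adjusted p = 9.57e-05). ALDH1A3, a retinaldehyde dehydrogenase, was at 112, 65.5, 124 and 173 CPM in HSA/d1, 7.57, 3.20, 4.93 and 16.7 CPM in Fet-A/d5 and 42.4, 78.8, 11.5 and 92.4 CPM in HSA/d5. It fell under fetuin-A by 3.88 on the log2 scale (adjusted p = 1.03e-05), and the difference of end points was -2.80 ± 0.53 (adjusted p = 0.000352). The carbonyl reductase CBR1 fell under fetuin-A (-3.13 ± 0.52, adjusted p = 6.22e-05) and under HSA (-4.51 ± 0.58, adjusted p = 1.35e-05).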
